A study of Mus musculus with 11 samples.

Results

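Genes that control blood clotting and plasmin formation, Thbd, F3, Tfpi, Procr, Plat, Plau, Serpine2 and Serpina10 (8 in all), were followed through naive extra-embryonic endoderm (nEnd) cells of the mouse. They were taken by name, as 8 of the 48952 gene symbols counted in sorted cells and 8 of the 32285 genes counted in single cells, and all 8 were present in both tables. nEnd cells stand in culture for the blastocyst's primitive endoderm (PrE) and were kept on mouse embryonic fibroblast feeders in RACL, a medium with Activin A, CHIR99021 and LIF. Untreated nEnd cells of an OCT4-mCherry protein reporter line were separated by flow cytometry on OCT4-mCherry and surface PDGFRA into Pdgfra+ cells, double-positive (DP) cells and Oct4+ cells, with 3 RNA-seq libraries of each. Oct4LOF nEnd cells (line EPUc), in which both copies of Oct4 (Pou5f1) can be deleted with 4-hydroxytamoxifen (4OHT), were sorted for PDGFRA, returned to culture and profiled as 1 single-cell library without 4OHT (-4OHT) and 1 with it (+4OHT). The reporter and the deletion were each studied in 1 line, and both single-cell libraries carried the inducible allele, so that they differed in 4OHT alone as far as the labels state.

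Clotting starts when tissue factor, the product of F3, binds factor VII at a cell surface, and the cascade ends in thrombin. Thrombomodulin (Thbd) holds thrombin and turns it towards the activation of protein C, which the endothelial protein C receptor (Procr) presents to it, while tissue factor pathway inhibitor (Tfpi) blocks the complex of tissue factor and factor VII. Tissue-type and urokinase-type plasminogen activators (Plat and Plau) cut plasminogen into plasmin, a protease that dissolves fibrin and matrix. Serpine2 (protease nexin-1) inhibits thrombin and the plasminogen activators, and Serpina10 is the protein Z-dependent inhibitor of factor X. In the mouse, parietal endoderm is known for thrombomodulin and for secretion of the tissue-type activator, and visceral endoderm for the urokinase type.

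Promoter sequences are shown first, and their link to the levels described further on was not tested. RefSeq promoter windows of the GRCm38.p6 build matched 4 of the 8 genes (F3, Tfpi, Procr and Serpine2). The stretches printed lie before the transcription start and outside annotated exons, from 170 to 1 bases before it for F3 (chr3:121723367-121723536, plus strand), from 170 to 17 for Tfpi (chr2:84476776-84476929, minus strand), from 200 to 101 for Procr (chr2:155751017-155751116, plus strand) and from 170 to 32 for Serpine2 (chr1:79858697-79858835, minus strand). Capitals mark matches, on either strand, to the GATA sites AGATAA and also TGATAA, the SOX site ACAATG, the AP-1 site TGACTCA, the CREB site TGACGTCA, the SP site GGGCGG, the TATA box TATAAA and the octamer ATGCAAAT.
F3: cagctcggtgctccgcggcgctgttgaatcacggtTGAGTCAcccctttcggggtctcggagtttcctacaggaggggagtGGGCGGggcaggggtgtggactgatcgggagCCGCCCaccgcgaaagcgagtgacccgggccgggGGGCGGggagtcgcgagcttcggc
Tfpi: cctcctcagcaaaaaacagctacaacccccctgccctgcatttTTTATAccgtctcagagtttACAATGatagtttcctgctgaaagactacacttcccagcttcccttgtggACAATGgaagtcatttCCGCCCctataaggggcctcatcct
Procr: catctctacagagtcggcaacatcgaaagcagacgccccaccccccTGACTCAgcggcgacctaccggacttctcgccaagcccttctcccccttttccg
Serpine2: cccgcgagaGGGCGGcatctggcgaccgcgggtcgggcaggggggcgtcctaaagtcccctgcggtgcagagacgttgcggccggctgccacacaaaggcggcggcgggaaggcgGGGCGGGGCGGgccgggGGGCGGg
F3 and Procr each held TGACTCA, which 2 of the 4 genes had in their 300-base windows and 5.2% of all 32851 windows held. The match lay 135 bases before the start in F3, on the opposite strand, and 154 bases before it in Procr. The thrombin receptor gene F2r, which like Tfpi had its highest sorted mean in DP cells, held TGACTCA as well. In F2r it lay 204 bases before the start, on the opposite strand. Tfpi held no match to it. F2r was the only gene outside the 8 whose promoter was looked at singly, so that its match is an example only. Tfpi held ACAATG at 107 and 57 bases before the start, a sequence in 12.6% of windows, and GGGCGG at 41. GGGCGG was in 3 of the 4 genes and in 35.7% of all windows, with 6 matches in the window of Serpine2, of which 2 overlapped by a base. Those at 19 and 13 bases before its start lie outside the stretch printed. The second annotated start of Tfpi had AGATAA 54 bases before it (11.2% of windows). These are matches of letters, and no binding was measured here.

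Sequencing gave 8019631 to 11642571 counted reads per sorted library, and 14185 genes had enough reads to be tested. The sort was visible in its own genes. Pou5f1 was at 8.37 to 26.4 CPM, read counts scaled to a common library total, in Pdgfra+, 132 to 310 in DP and 861 to 1137 in Oct4+ libraries, and Pdgfra at 535 to 967, 420 to 718 and 4.96 to 12.1. All 11 endoderm markers had reads in every sorted group, with summed levels of 34040 to 44720 CPM in Pdgfra+, 26200 to 35310 in DP and 180 to 466 in Oct4+. Col4a1 (means of 24430 and 15240 CPM) and Lama1 (11670 and 8343) made up most of the sums in Pdgfra+ and DP. The other endoderm markers went both ways, as Dab2 (1177 and 1761) and Sox17 (401.5 and 282.7) did. Feeder fibroblast markers summed to 48.2 to 142 CPM in Pdgfra+, 14.6 to 58.4 in DP and 14.6 to 164 in Oct4+. Col1a1 averaged 0.415 CPM in DP. Fbn1 made up most of the sums in Pdgfra+ (70.2, 139 and 35.2 CPM) and in DP (53.7, 51.9 and 10.6). Col1a1 was at 68.3, 5.225 and 2.66 CPM in the Oct4+ libraries and at most 2.61 in Pdgfra+ and DP ones. In sorted cells, fewer cells of a type and less RNA per cell cannot be told apart.

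In sorted cells, 7 of the 8 genes had their lowest levels in Oct4+ cells, and 6 of these their highest mean in Pdgfra+ cells. F3 (chr3:121723537-121735048, GRCm38) was counted at 501, 441 and 825 CPM in the 3 Pdgfra+ libraries, 268, 97.1 and 170 in DP and 7.36, 7.59 and 9.98 in Oct4+. The 3 groups did not overlap, and every DP library lay between the others. Per kilobase of exon, F3 had the highest level of the 8 in Pdgfra+ cells, at 175 to 327 CPM per kilobase, and its lowest library was above the highest of any other. Its inhibitor Tfpi (chr2:84432855-84476775) was ordered differently, with 387, 300 and 144 CPM in Pdgfra+, 471, 343 and 502 in DP and 24.2, 39.0 and 34.8 in Oct4+. The Pdgfra+ and DP libraries overlapped for Tfpi, and both were above all Oct4+ libraries. In DP cells the levels per kilobase of F3, 38.4 to 106, and of Tfpi, 62.8 to 92.0, overlapped.

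Thbd and Procr, the receptors of the protein C branch, were both highest in Pdgfra+, then DP, then Oct4+. Thbd (chr2:148404466-148408188, 1 exon) was at 97.7, 51.3 and 148 CPM in Pdgfra+, 44.0, 6.25 and 14.0 in DP and 0.543, 0.0986 and 0.333 in Oct4+, the last from 7, 1 and 3 reads. Procr (chr2:155751117-155755471) was at 123, 138 and 89.1 CPM in Pdgfra+, 86.6, 47.8 and 44.3 in DP and 1.16, 5.42 and 1.33 in Oct4+. For neither gene did any pair of groups overlap, although DP replicate 1 came close to the Pdgfra+ range in both. Serpina10 (chr12:103614786-103631444) was lower still, at 15.3, 8.37 and 21.6 CPM in Pdgfra+ and 5.86, 0.708 and 7.19 in DP, and had 0 reads in all 3 Oct4+ libraries.

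Of the plasminogen activators, Plat was abundant and Plau was hardly read. Plat (chr8:22757727-22782844) was at 164, 121 and 89.5 CPM in Pdgfra+, 118, 28.3 and 27.1 in DP and 2.56, 3.06 and 1.11 in Oct4+. DP replicate 1 alone fell within the Pdgfra+ range, and the Oct4+ libraries were below all others. Plau (chr14:20836660-20843385) was between 0.118 and 1.55 CPM in the 9 libraries and had too few reads to be tested. Serpine2 (chr1:79794197-79861180) was at 215, 268 and 99.7 CPM in Pdgfra+, 189, 202 and 100 in DP and 25.4, 56.7 and 30.7 in Oct4+, so that Pdgfra+ and DP overlapped and Oct4+ was apart. In Pdgfra+ cells the levels per kilobase of Procr (43.9 to 67.9) and Tfpi (26.3 to 70.9) overlapped, as did those of Tfpi with Thbd (13.8 to 39.7), Thbd with Serpine2 (12.03 to 32.3) and Serpine2 with Plat (14.3 to 26.2). Serpina10, at 2.39 to 6.18, and Plau, at 0.0882 to 0.206, were each below all of these.

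**Figure D1:**
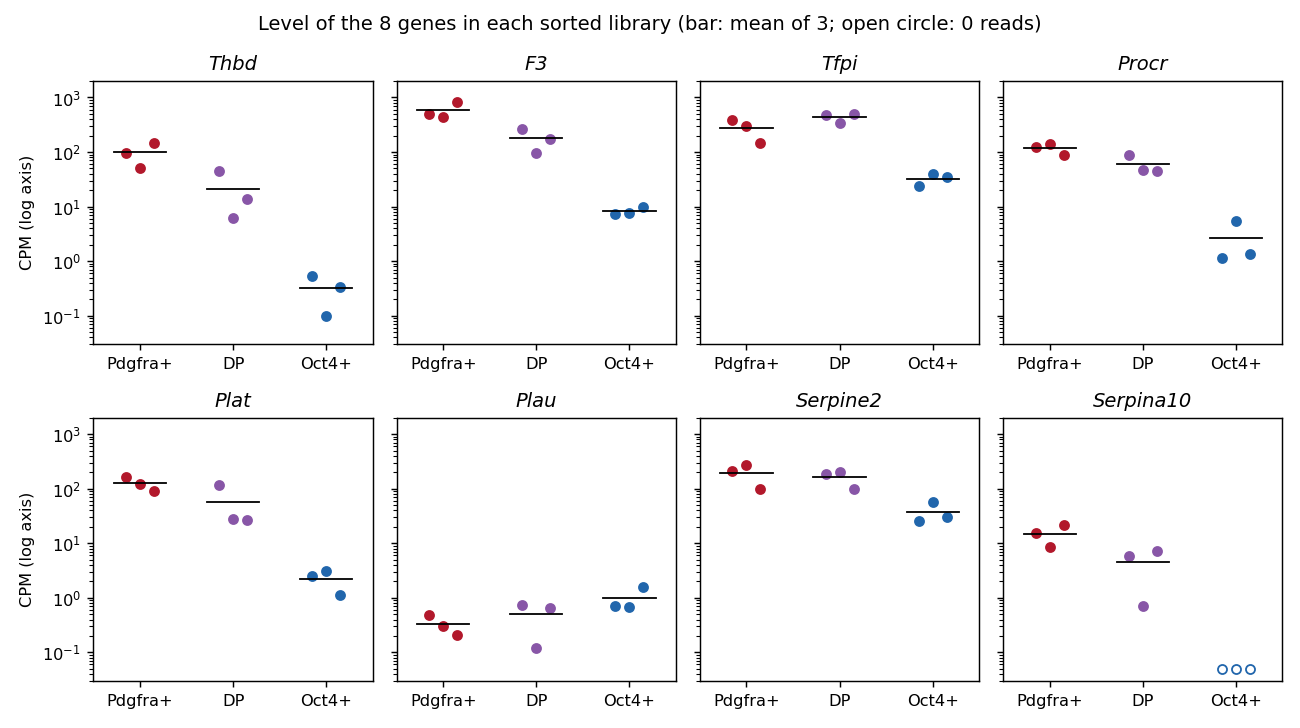
CPM of each gene (log axis) in the 3 Pdgfra+, 3 DP and 3 Oct4+ libraries, with points for libraries and bars for group means. Serpina10 had 0 reads in all 3 Oct4+ libraries, drawn as open circles at the foot of the panel, and Tfpi was the tested gene with its highest mean, 439 CPM, in DP.

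To ask which genes mark endoderm cells with or without OCT4, the sorted groups were compared in pairs. P-values came from quasi-likelihood tests in edgeR and were adjusted by Benjamini-Hochberg over all 14185 genes, and a gene was called past the threshold at an adjusted p under 0.05 and a log2 fold change beyond 1.5 in either direction. The 3 comparisons share libraries. The 8 genes were chosen with earlier results of these data known. Counts of them past the threshold therefore describe these genes and do not test them as a set. Against Oct4+ cells, the 7 genes tested were all lower in Oct4+ than in Pdgfra+ and past the threshold, where 14.7% of all genes tested were lower and past it and 32% were past it in either direction. F3 was 71.1-fold higher in Pdgfra+ (log2 fold change of Oct4+ over Pdgfra+ -6.15, SE 0.43, adjusted p = 3.63e-06), and Thbd differed by -8.13 on the log2 scale (SE 0.93, adjusted p = 4.84e-05). Procr (-5.48) and Plat (-5.77) followed. Tfpi and Serpine2 differed least, at -3.08 (SE 0.35) and -2.37 (SE 0.43). Serpina10 was at least 160-fold higher in Pdgfra+, taking 3 reads over the Oct4+ group as the floor. The groups did not overlap for any of the 7, as for 69.3% of all genes.

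The same 7 genes were higher in DP than in Oct4+ cells and past the threshold, where 13.1% of all genes tested were and 27.7% were past it in either direction. Thbd differed by 5.92 on the log2 scale (SE 0.92, adjusted p = 0.000433), Plat by 4.66 (SE 0.66), Procr by 4.51 (SE 0.53) and F3 by 4.43 (SE 0.41, adjusted p = 1.93e-05). Tfpi was higher by 3.75 (SE 0.36, adjusted p = 2.49e-05) and Serpine2 by 2.12 (SE 0.43). Serpina10 was at least 47.9-fold higher in DP, with the same floor. For all 7, the groups did not overlap, as for 62.6% of all genes.

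Between the endoderm cells that differ in OCT4, F3 fell in DP and was the only one of the 7 past the threshold, where 3.89% of all genes tested were and 0.691% were lower in DP. The tissue factor gene was 3.30-fold lower in DP (log2 fold change -1.72, SE 0.35, edgeR adjusted p = 0.0239). Thbd was 4.62-fold lower on average but with a wider spread (-2.21, SE 0.62, adjusted p = 0.0601), from -3.29 to -1.77 on the log2 scale with 1 library left out. Serpina10 (-1.72, SE 0.70, adjusted p = 0.176), Plat (-1.11, SE 0.53, adjusted p = 0.220) and Procr (-0.97, SE 0.43, adjusted p = 0.191) also had negative values and did not pass. Serpine2 differed by -0.25 (SE 0.40, adjusted p = 0.736). Tfpi, at 0.67 (SE 0.32, adjusted p = 0.228), had the only positive value. Pdgfra+ and DP libraries did not overlap for F3, Thbd, Procr and Serpina10, 4 of the 7, against 34.2% of all genes. The median of the 7 log2 fold changes was -1.11, beside 0.02 over all genes tested.

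Libraries of the same replicate number varied together in this comparison. Within each number, Thbd, F3, Procr, Plat and Serpina10 were lower in DP in 3 of 3 pairs, and Tfpi was higher in 3 of 3. The ratio of DP to Pdgfra+ for F3 was 0.535, 0.220 and 0.206 in the 3 pairs, and for Thbd 0.451, 0.122 and 0.0946. For Tfpi it was 1.22, 1.14 and 3.50. With the replicate number as a block and the 6 libraries alone, Thbd (-2.44, edgeR adjusted p = 0.0219) and Serpina10 (-1.89, adjusted p = 0.0250) passed the threshold beside F3 (-1.78, adjusted p = 0.0190). Plat (-1.39, adjusted p = 0.0285) and Procr (-0.995, adjusted p = 0.0236) then had an adjusted p under 0.05 without reaching the fold change. The call of F3 was lost without DP replicate 2 (adjusted p = 0.0632), without DP replicate 3 (adjusted p = 0.0870) or without Pdgfra+ replicate 3 (adjusted p = 0.0888), and without DP replicate 1, the DP library nearest to Pdgfra+, 3 genes passed, F3 (-2.15, adjusted p = 0.0113), Thbd (-3.29, adjusted p = 0.0121) and Plat (-2.17, adjusted p = 0.0109). Plat ranged from -2.17 to -0.77 with 1 library left out.

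Marker genes moved with this comparison. Amn and Cubn, which form the endocytic receptor of visceral endoderm, were higher in DP, at 663 ± 184 against 164 ± 46.6 CPM and 2357 ± 786 against 629 ± 139 (SD, n = 3), and were 2 of 9 visceral endoderm markers to pass, while 0 of 9 parietal endoderm markers did. The other visceral markers went both ways and did not pass. Afp (-0.25), Ttr (-0.33) and Hnf4a (-0.49) had negative log2 fold changes. Apoa1 (0.395), Apob (0.89), Ihh (0.47) and Rhox5 (0.24) had positive ones. The 9 parietal markers all had negative values, from -1.17 (Vim) to -0.19 (Sparc), with a median of -0.58. All 9 epiblast markers were higher in DP and passed. The parietal markers summed to 67950 to 88840 CPM in Pdgfra+ and 42450 to 69080 in DP, the visceral ones to 1312 to 1685 and 2775 to 4476, and the epiblast ones to 145 to 243 and 684 to 1074. The rise of the visceral sum was mostly that of Amn and Cubn. The part of the cells of all these marker lists in the values of F3 and the other genes was not tested.

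**Figure D2:**
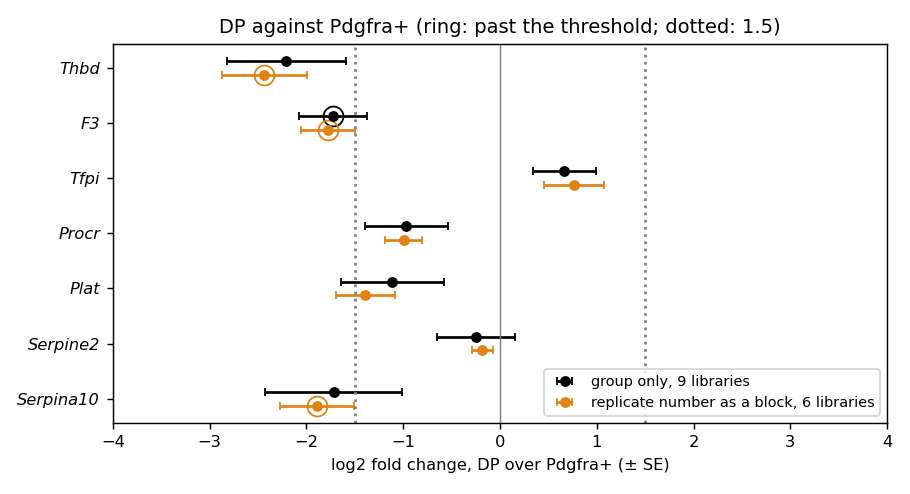
Log2 fold change of DP over Pdgfra+ (points, with bars for the standard error) for the 7 genes tested, in the fit by group over 9 libraries (black) and with the replicate number as a block over 6 libraries (orange). Rings mark genes past the threshold, which are F3 at -1.72 in the first and Thbd, F3 and Serpina10 in the second, and Tfpi alone lies right of 0.

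Over the 9 sorted libraries, the genes most like each member by Pearson's r of log2 CPM were taken from 7915 genes with a mean of at least 20 CPM (7916 for Serpina10), as a description over points that fall into 3 groups. They were Acadsb (r = 0.998) and Fut11 (0.997) for Thbd, Bahd1 (0.998) and Glt8d1 (0.997) for F3, and Slc39a8 (0.997) and Slco3a1 (0.995) for Procr. Pearson's r does not measure the size of the differences. Acadsb averaged 67.2, 50.7 and 26.6 CPM in Pdgfra+, DP and Oct4+, a much narrower range than that of Thbd. Bahd1, at 93.3, 59.3 and 18.9, likewise had a narrower range than F3. Slc39a8, at 217, 116 and 5.15, was low in Oct4+ cells, as Procr was. Tfpi was most like R3hdm4 (0.996) and Wars1 (0.995), Plat like Cmtm3 (0.993) and Gnai3 (0.991), Serpina10 like Papss1 (0.994) and Suox (0.993), and Serpine2 like Nfatc2 (0.981) and Clu (0.979). Wars1, like Tfpi, had its highest mean in DP, with 289 CPM in Pdgfra+, 397 in DP and 91.2 in Oct4+.

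A wider list of 40 clotting and plasminogen genes had 20 with enough reads to test. Between DP and Pdgfra+, 1 of the 20 was higher in DP and 0 were lower, where 3.2% of all genes tested were past the threshold and higher, with a median log2 fold change of -0.11. That gene was F2r, the thrombin receptor PAR1, which stood at 113, 41.4 and 117 CPM in Pdgfra+, 237, 325 and 446 in DP and 86.7, 61.3 and 80.1 in Oct4+. F2r was higher in every DP library than in any other, by 3.72-fold over Pdgfra+ (log2 fold change 1.89, SE 0.37, edgeR adjusted p = 0.0221). Without DP replicate 2, DP replicate 3 or Pdgfra+ replicate 3, 0 of the listed genes passed. Pros1, which encodes protein S, the cofactor of protein C, was at 110 ± 25.03 CPM in Pdgfra+, 242 ± 18.4 in DP and 45.7 ± 25.9 in Oct4+ (SD, n = 3).

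Against Oct4+ cells, the plasmin side of the list divided. In DP, 10 of the 20 were higher than in Oct4+ and 3 were lower, where 13.1% and 14.6% of all genes tested were, with a median log2 fold change of 1.78 beside -0.04 over all genes. The count of lower genes was thus near the share of all genes. Plaur, the urokinase receptor, was 19.9-fold higher in DP (log2 4.31, SE 0.23), although its ligand Plau was hardly read, and Anxa2, a cell-surface partner of plasminogen and its tissue-type activator, was 13.9-fold higher (3.79, SE 0.32). F2 (prothrombin, 3.47), Pros1 (2.41) and F2r (2.14) came next among the genes reaching 5 CPM. Plasminogen itself (Plg, 5.32) and the fibrinogen chain Fgb (3.68) differed by more than these but were sparse, averaging 1.76 and 2.65 CPM in DP. Cpb2, the carboxypeptidase that protects fibrin (-5.20), and Lrp1, an endocytic receptor of activator and inhibitor complexes (-2.12), were higher in Oct4+. Against Pdgfra+, 6 of the 20 were lower in Oct4+ and 3 were higher, where 14.7% and 17.3% of all genes tested were, so that the count of higher genes did not exceed that share. Plaur (-4.26), Anxa2 (-4.39) and F2 (-4.58) were lower in Oct4+, as were Ggcx (-2.48) and Vkorc1 (-2.64), the enzymes of the vitamin K cycle. Cpb2 was at least 73-fold higher in Oct4+, against 0 reads in Pdgfra+.

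In the single-cell libraries, 6896 barcodes without 4OHT and 7283 with it carried counts of unique molecular identifiers (UMIs), of which 5324 and 6299 passed the filters, with medians of 17950 and 12650 UMIs. The libraries shared 21 barcode sequences. Cells were clustered on both libraries together without the 8 genes and the wider list. Clusters 0 (led by Gkn1, Gkn2 and Clu), 1 (Car4 and Pitx1) and 4 (Amn and Cubn) were endoderm-like by their markers, and cluster 2 (Cdx1 and Tdgf1) was epiblast-like. Cluster 3 had Zscan4d and Tcstv3 of the 2-cell-like marker list among its leading genes and is given by its number. Its epiblast markers were nonetheless high, with a mean of 0.885 relative to each marker's highest cluster, beside 0.928 in cluster 2. Endoderm-like cells numbered 1377 (25.9%) without 4OHT and 6061 (96.2%) with it, and different clusters held them, with 195, 445 and 737 cells of clusters 0, 1 and 4 without 4OHT and 3899, 2135 and 27 with it. With 1 library per condition no difference between them could be tested, and the intervals given are exact 95% intervals for counting error only. Pou5f1 was at 40.4 CPM, taken over UMIs in single cells, in all cells kept without 4OHT and 2.47 with it. A 3′ tag may lie outside the deleted part of the gene, so that this level is no measure of the deletion.

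The endoderm-like clusters differed in most of the 8 genes. Without 4OHT, F3 was at 628 CPM (595 to 663) in cluster 0, 466 (449 to 483) in cluster 1 and 37.4 (34.3 to 40.7) in cluster 4, the endoderm-like cells with Amn and Cubn. It was at 4.46 in the epiblast-like cluster 2 and 2.70 in cluster 3. Thbd was at 69.6 CPM in cluster 0, 39.1 in cluster 1 and 0.837 in cluster 4, where 12 UMIs were counted in 737 cells. Procr was at 131, 52.3 and 9.69 CPM and Plat at 55.4, 48.8 and 3.35 in the same order. Serpina10 had 9 UMIs in cluster 0, 40 in cluster 1 and 0 in cluster 4, where the limit of 3 counts is 0.209 CPM. All 5 were thus lowest in cluster 4 of the endoderm-like clusters, although Pdgfra was at 171 CPM in cluster 0, 166 in cluster 1 and 133 in cluster 4.

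Tfpi ran the other way. It was at 298 CPM (289 to 307) in cluster 4, 206 (187 to 226) in cluster 0 and 50.1 (44.6 to 56.1) in cluster 1 without 4OHT. It was read in cells that were not endoderm-like as well, at 65.8 CPM in cluster 2, which was above endoderm-like cluster 1, and at 37.9 in cluster 3. F2r also stood highest in cluster 4, at 72.2 CPM against 26.5 in cluster 0 and 24.3 in cluster 1. Serpine2 was at 62.5, 36.9 and 43.8 CPM in clusters 0, 1 and 4, a narrower range than the other genes had, and at 11.7 in cluster 2. Pou5f1 was at 21.9 CPM in cluster 4, 2.37 in cluster 0, 3.86 in cluster 1 and 52.8 in cluster 2. In cluster 4, 66 of the 737 cells without 4OHT were called doublets, against 1 in cluster 0 and 4 in cluster 1. Without them, cluster 4 had F3 at 40.3 CPM, Thbd at 0.990, Procr at 10.4, Plat at 3.88 and Tfpi at 318. Epiblast markers summed to 3453 CPM in cluster 4, 704 in cluster 0 and 913 in cluster 1, and their part in these levels was not tested.

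**Figure D3:**
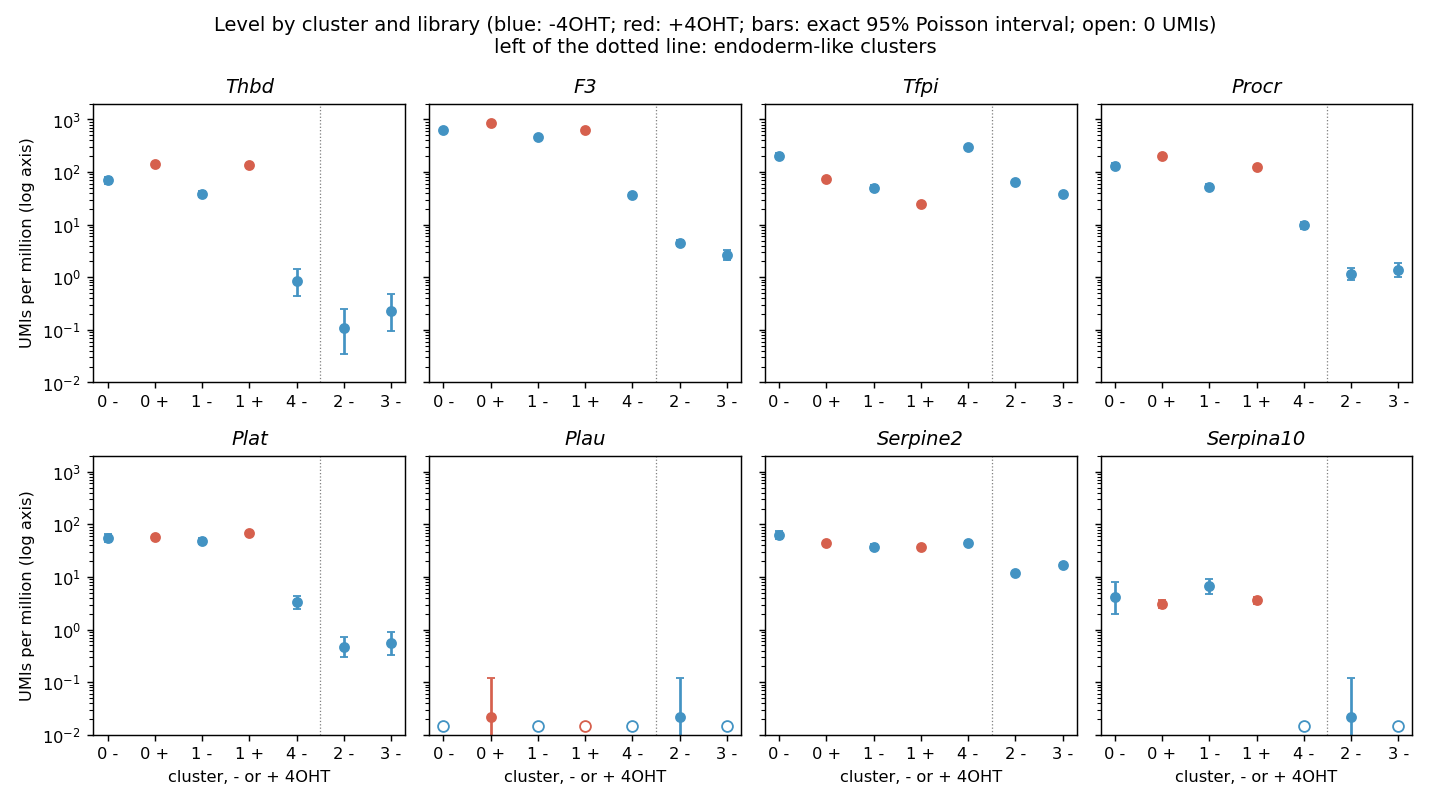
CPM over UMIs of each gene (log axis) by cluster, without 4OHT (blue) and with it (red), with exact 95% Poisson intervals and open circles at 0 UMIs. Clusters 0, 1 and 4 are endoderm-like, cluster 2 is epiblast-like and cluster 3 is unnamed, and Thbd, F3, Procr and Plat are lowest of the endoderm-like sets in cluster 4 while Tfpi is highest there.

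Plau was as scarce in single cells as in sorted ones, with 5 UMIs among all cells kept in each library. In endoderm-like cells it had 0 UMIs without 4OHT, where 3 counts would be 0.134 CPM, and 1 with it. Of the 5 UMIs without 4OHT, 4 were in the 20 feeder fibroblast-like cells (7.07 CPM, 1.93 to 18.1), whose leading genes included Col1a1, Col1a2 and Col3a1. With 4OHT, 2 of the 5 were in the 32 feeder fibroblast-like cells (2.08 CPM).

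In the endoderm-like class as a whole, Thbd, Procr, F3 and Plat were higher with 4OHT and Tfpi was lower. Thbd was at 17.5 CPM without 4OHT and 140 with it, a ratio of 7.98 (7.21 to 8.84). Procr went from 32.4 to 168 CPM (5.17, 4.79 to 5.57), F3 from 207 to 751 (3.63, 3.52 to 3.74) and Plat from 20.3 to 62.3 (3.06, 2.78 to 3.38). Tfpi went from 224 to 51.0 CPM, 4.38-fold lower with 4OHT (4.21 to 4.56). Serpine2 had a ratio of 0.940 (0.876 to 1.01). Serpina10 rested on 49 and 283 UMIs and had a ratio of 1.51 (1.11 to 2.10). Cluster 4 held most of the class without 4OHT, and clusters 0 and 1 held most of it with 4OHT.

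For Thbd, Procr, F3, Plat and Tfpi, the ratios within a cluster were nearer to 1 than in the class. In cluster 0 the ratio of +4OHT to -4OHT was 2.03 (1.72 to 2.41) for Thbd, 1.55 (1.38 to 1.76) for Procr, 1.35 (1.27 to 1.42) for F3 and 1.05 (0.873 to 1.27) for Plat. In cluster 1 it was 3.53 (3.09 to 4.04) for Thbd, 2.40 (2.14 to 2.70) for Procr, 1.37 (1.32 to 1.43) for F3 and 1.38 (1.22 to 1.56) for Plat. Tfpi stayed lower with 4OHT, 2.82-fold (2.55 to 3.12) in cluster 0 and 2.05-fold (1.79 to 2.33) in cluster 1. Of the 7 ratios, that of Thbd was the largest and that of Tfpi the smallest in both clusters and in the class, although the intervals of Tfpi and Serpina10 overlapped in both clusters and those of Thbd and Procr in cluster 0. Serpine2 was at a ratio of 0.713 (0.598 to 0.856) in cluster 0 and 1.01 (0.873 to 1.17) in cluster 1. For Serpina10 the ratio turned below 1, to 0.533 (0.373 to 0.778) in cluster 1 and 0.722 (0.370 to 1.61) in cluster 0. Parietal endoderm markers summed to 25540 CPM without 4OHT and 26550 with it in cluster 0, and to 20730 and 22320 in cluster 1. Other markers differed more between the libraries within the clusters. The endoderm factors Sox17 and Gata6 had ratios of 1.41 and 1.45 in cluster 0 and of 1.58 and 1.41 in cluster 1, at least as large as those of F3. Cubn was at 0.458 in cluster 0 and 0.251 in cluster 1, and Amn at 0.845 (0.449 to 1.79) and 0.161. Visceral endoderm markers summed to 860 CPM without 4OHT and 768 with it in cluster 0 and to 897 and 700.0 in cluster 1. Epiblast markers summed to 704 and 669 in cluster 0 and to 913 and 668 in cluster 1. These sums hide the epiblast marker Nanog, at 6.152 CPM without 4OHT and 0.0645 with it in cluster 0 (13 and 3 UMIs). In cluster 1 Nanog was at 6.204 and 0.1287 CPM (37 and 5 UMIs). Pou5f1 was level in cluster 0, at 2.366 and 2.365 CPM, and lower with 4OHT in cluster 1, at 3.856 and 1.004. The part of the cells of any of these markers in the ratios was not tested.

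**Figure D4:**
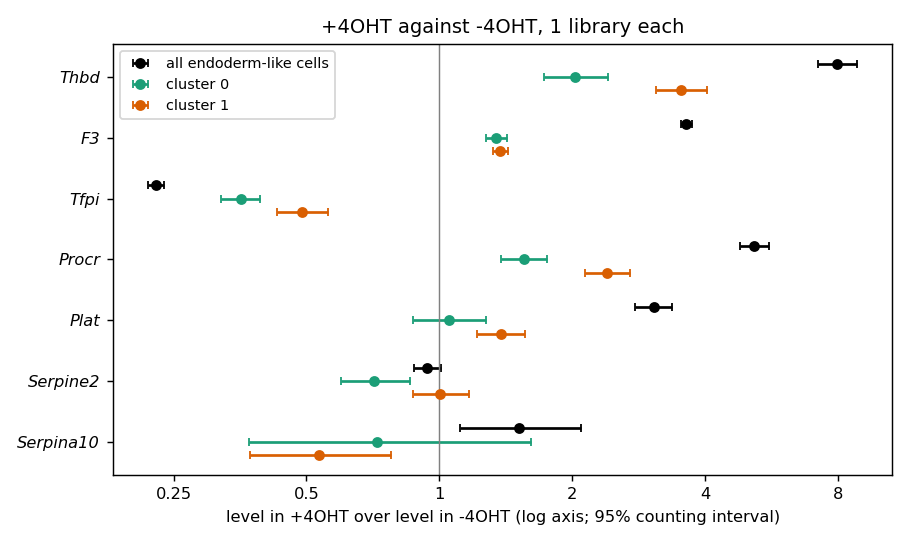
Ratio of the level with 4OHT to that without it (log axis, 1 library each, bars for the 95% counting interval) in all endoderm-like cells (black), cluster 0 (green) and cluster 1 (orange). Thbd lies at 7.98 in the class but at 2.03 and 3.53 in the clusters, and Tfpi lies below 1 in all 3.

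Thbd, F3, Procr and Plat were also counted cell by cell, without comparing the shares to those that the genes' separate detection rates would give. With each cell thinned to 5000 UMIs, 3 or 4 of these 4 genes were read in 28.1% of 3821 cluster 0 cells and 26.3% of 2130 cluster 1 cells with 4OHT, and in 16.0% of 188 and 8.90% of 438 without it. In cluster 4 without 4OHT, 0 of 705 thinned cells had 3 or 4, which allows up to 0.426% of cells with such reads at this depth, and 78.3% had none. In the epiblast-like cluster 0 of 2314 had 3 or 4, which allows up to 0.13% at this depth, and 97.0% had none. These limits are on reading the genes at 5000 UMIs, not on their expression. The thinning left out 78, 5, 7, 7, 32 and 21 shallower cells in the same order. Without thinning, 3 or 4 were read in 54.8%, 69.8%, 36.4%, 28.8%, 0.814% and 0% of the cells, at median depths of 10670, 16600, 10560, 12600, 18200 and 18830 UMIs.

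Of the wider list, 3 genes with at least 20 CPM in endoderm-like cells differed at least by a factor of 2 between the libraries. F2r went from 55.2 CPM without 4OHT to 10.1 with it (5.45-fold lower, 4.99 to 5.95), and was also lower in cluster 0 (26.5 to 11.98) and in cluster 1 (24.3 to 7.95). S100a10, the partner of Anxa2 in its plasminogen-binding complex, went from 437 to 214 CPM, and Anxa2 from 138 to 353. Within clusters 0 and 1 these differences were smaller or not seen, with ratios of +4OHT to -4OHT of 0.850 (0.784 to 0.923) and 1.001 (0.937 to 1.07) for S100a10 and of 1.004 (0.941 to 1.07) and 1.35 (1.27 to 1.44) for Anxa2.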

How the data were processed

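Mouse nEnd cells were measured as 9 libraries of sorted cells (Pdgfra+, DP and Oct4+, 3 each) and 2 single-cell libraries. The sorted libraries were deposited by the authors as raw read counts per gene symbol, from NEBNext Ultra II Directional libraries sequenced single-end. For their aligner, counter and use of strand, nothing was given in the sources used here. The single-cell matrices were deposited as raw UMI counts from 10x 3′ libraries made with Cell Ranger 6.1.2 per the file headers, on mm10 per the labels. The 35 lines with no gene symbol, and 0 columns of samples, were left out. The 8 genes, the wider list and the marker lists were chosen with earlier results of these data known.

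Counts of all genes kept by filterByExpr (14185) were fitted in edgeR 4.0.16 (R 4.3.3) with TMM scaling, group as the only term, all 9 libraries, and quasi-likelihood tests. CPM use TMM-scaled library totals. The study calls the sorted libraries biological replicates, although the labels do not say whether they came from separate cultures. Same-numbered DP and Pdgfra+ libraries deviated together (r = 0.271, 0.477 and 0.321), and the number was used as a block there. All members were named, and of the wider list up to 5 genes per direction and comparison among those past the threshold and reaching 5 CPM, or those reaching 20 CPM and a ratio of 2 in endoderm-like cells; 1 listed gene is not reported here by name. Alternatives were DESeq2 1.42.0, its size factors, no filter, 6 libraries alone, and leaving out each library.

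Barcodes with at least 1000 genes and at most 10% mitochondrial UMIs were kept, 11623 of 14179. Scanpy 1.11.5 scaled counts per cell, and 2000 variable genes, 20 principal components and 20 neighbours entered Leiden clustering (leidenalg 0.10.2) at a resolution of 0.2. Doublets were not removed, and 4.83% (-4OHT) and 5.60% (+4OHT) of cells were called from simulated ones. Clusters were named by relative marker levels, and stayed unnamed where markers of another list led, a rule chosen after the clusters were seen. Intervals are exact Poisson and conditional binomial. Gene positions are from GENCODE on GRCm38, and levels per kilobase use its exons.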

Additional observations from a re-analysis of the deposited data

How the results depend on the processing

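The 7 calls of Oct4+ against Pdgfra+ and of DP against Oct4+ held under every alternative run, except that 6 genes were called with the 6 libraries alone or the replicate block in the latter, where Serpina10 had too few reads to be tested. Replicate numbers did not pair those groups (r from -0.0728 to 0.152). In DP against Pdgfra+, the 1 gene past the threshold became 3 with no filter and 3 with the replicate block, and 0 to 3 with 1 library left out. The listed genes past it there became 3 with no filter and 2 with the replicate block, and 0 to 1 with 1 library left out. With 1 library left out they numbered 12 to 15 in DP against Oct4+ and 9 to 12 in Oct4+ against Pdgfra+. Thbd (-2.19, adjusted p = 0.000124) and Serpina10 (-1.71, adjusted p = 0.0259) were past the threshold with no filter in edgeR. Serpine2 ranged from -0.56 to 0.06 with 1 library left out, and changed sign to 0.06 without Pdgfra+ replicate 2 and to 0.01 without DP replicate 3. In all, 281 of 292 values under alternatives of the members kept their direction and side of the threshold. By comparison these were 87 of 98 in DP against Pdgfra+, 96 of 96 in DP against Oct4+ and 98 of 98 in Oct4+ against Pdgfra+. Every change thus fell in DP against Pdgfra+.

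For the ratios of +4OHT to -4OHT in endoderm-like cells, Leiden at a resolution of 0.5 gave 9.97 for Thbd, 4.12 for F3, 0.244 for Tfpi, 6.24 for Procr, 3.43 for Plat and 1.08 for Serpine2. The mean over cells gave 6.19, 3.04, 0.257, 4.30, 2.53 and 0.856 in the same order, and 1.06 for Serpina10. Without called doublets Thbd was at 7.11, F3 at 3.30, Procr at 4.71 and Plat at 2.74, and with all barcodes F3 was at 3.77. Within cluster 0, a comparison added after seeing the data, the ratios were 2.03 for Thbd, 1.35 for F3, 0.354 for Tfpi, 1.55 for Procr, 1.05 for Plat, 0.713 for Serpine2 and 0.722 for Serpina10. Within cluster 1 they were 3.53, 1.37, 0.489, 2.40 and 1.38 for Thbd, F3, Tfpi, Procr and Plat, and 0.533 for Serpina10. The cause of these shifts was not tested. Cluster 4 had too few cells with 4OHT for a ratio. Few counts were had for Plau in all libraries and for Serpina10 in single cells, and the part of depth in this was not tested.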

Other observations

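UMIs of the genes were also counted in the smaller clusters, together with those of endoderm markers, so that these levels cannot be read as expression by those cells. The trophectoderm-like cluster held 32 cells without 4OHT and 201 with it, of which 1 and 37 were called doublets, and in the latter F3 was at 173 CPM (160 to 187), Procr at 69.6, Tfpi at 50.1, Serpine2 at 38.8 and Thbd at 31.1. In the 32 feeder fibroblast-like cells with 4OHT, Plat was at 83.3 CPM (66.0 to 104) and Tfpi at 70.8, and in the 20 without 4OHT they were at 67.2 and 140. F3 in these fibroblast-like cells was at 30.1 CPM without 4OHT and 217 with it, while Sox17 was at 35.4 and 135, Gata6 at 91.96 and 153, Pdgfra at 33.6 and 92.6, and Col4a1 at 760.4 and 2048. In the trophectoderm-like cells with 4OHT, Sox17 was at 167 CPM and Gata6 at 108. The part of endoderm RNA in these levels was not tested.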
